A study of Mus musculus with 24 samples.

Results

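Expression of 10 genes that mark or serve fat cells was followed through constructs of ceramic and stromal cells that had been placed under the skin of mice. They were Adipoq, Lep, Cfd, Plin1, Plin4, Cidec, Fabp4, Lpl, Pparg and Ucp1, found by their symbols, and each of the 10 had 1 row among the 51138 genes of the count table. All 10 passed the filter of at least 10 counts over all samples, as did 30564 genes in all. Each construct was built on 40 mg of a granular bone substitute, the ceramic biphasic calcium phosphate (BCP), and lay in a pocket on the back of a Foxp3-DTR/eGFP mouse of 8 to 9 weeks for 2 weeks. In this strain, used in every group, the promoter of Foxp3 drives a receptor for diphtheria toxin and a green fluorescent protein, so regulatory T cells (Treg), which express Foxp3, can be removed with the toxin. Mice of both sexes were used, and each of the 24 samples came from another mouse, with 4 in each of 6 groups. In mice without toxin the granules carried no cells (BCP), 800000 mesenchymal stromal cells (MSC) from the bone marrow of wild-type C57BL/6J mice (BCP+MSC), MSC primed with 10 nM resolvin E1, a lipid mediator that ends inflammation (BCP+MSC+RvE1), or MSC cocultured with activated Treg from the spleen of Foxp3-DTR/eGFP mice (BCP+MSC+Treg). In mice given 50 µg/kg diphtheria toxin the granules carried MSC, without further treatment ((dep)BCP+MSC) or with daily local injections of 50 µL of 1 µM resolvin E1 ((dep)BCP+MSC+RvE1inj). RNA came from the whole construct, seeded cells and host cells together, so fewer cells of a type and less RNA per cell cannot be told apart.

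White adipocytes store triglyceride in a single large lipid droplet and release hormones. PPARγ, encoded by Pparg, is the transcription factor that drives their formation, and genes such as Adipoq, Fabp4 and Plin1 are among its known targets. Bone marrow MSC can become adipocytes as well as osteoblasts, and the skin of the mouse overlies a layer of dermal and subcutaneous fat, and adipocyte RNA from either cannot be told apart in these data. Brown and beige adipocytes differ by burning fat for heat, through the mitochondrial uncoupling protein that Ucp1 encodes.

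Total counts ran from 8482701 in (dep)BCP+MSC replicate 1 to 144417743, a 17.0-fold range, and 3 counts, taken as the floor, equal 0.354 CPM (counts scaled to the size of the library) at the lowest depth and 0.0208 CPM at the highest. Such floors cover counting error only. Of 10 markers that define adipocytes, at least 9 had a count in every sample, and their summed level ran from 25.2 CPM in BCP replicate 4 to 11450 CPM in BCP+MSC+Treg replicate 1. Markers of other tissues varied as well, with the sum of 16 skeletal muscle genes between 408.5 and 46040 CPM and that of 15 skin and hair genes between 1.89 and 537 CPM. BCP replicate 4 stood apart in most of the adipocyte genes and is named where a result rests on it. In (dep)BCP+MSC the data columns are numbered 1, 2, 4 and 5, and those numbers are used here.

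Per kilobase of exon, Cfd had the highest median level over the 24 samples at 1358 CPM per kb, followed by Lpl at 310.3, Fabp4 at 166, Adipoq at 125 and Cidec at 101. Plin4 (33.5 CPM per kb), Plin1 (16.8), Pparg (10.8) and Lep (6.76) were lower, and Ucp1 was lowest at 0.0646. Between animals the levels moved widely. The highest sample exceeded the lowest 4966-fold in Cfd, 2432-fold in Lep, 1690-fold in Cidec, 393-fold in Plin4, 343-fold in Plin1 and 284-fold in Adipoq, though Lep rested on 1 count in its lowest sample. Fabp4 moved 54.3-fold, and Pparg (4.05-fold) and Lpl (3.64-fold) were far steadier. Differences between the 6 group means held from 8.1% of the variance of log2 CPM in Pparg and 14.2% in Adipoq to 41.3% in Plin4, so most of the spread lay between animals of the same group. With 4 animals per group, part of such a share arises by chance alone, and this part was not taken off. When the 6 groups were ordered by the mean of each gene, 0 of the 50 neighbouring pairs had samples that did not overlap, and the lowest p among them was 0.143 (exact permutation tests over 70 arrangements of 4 against 4, two-sided). Neighbours in such an order are the groups with the closest means, so this count cannot show whether the groups differ. Groups farther apart are compared below.

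**Figure D1:**
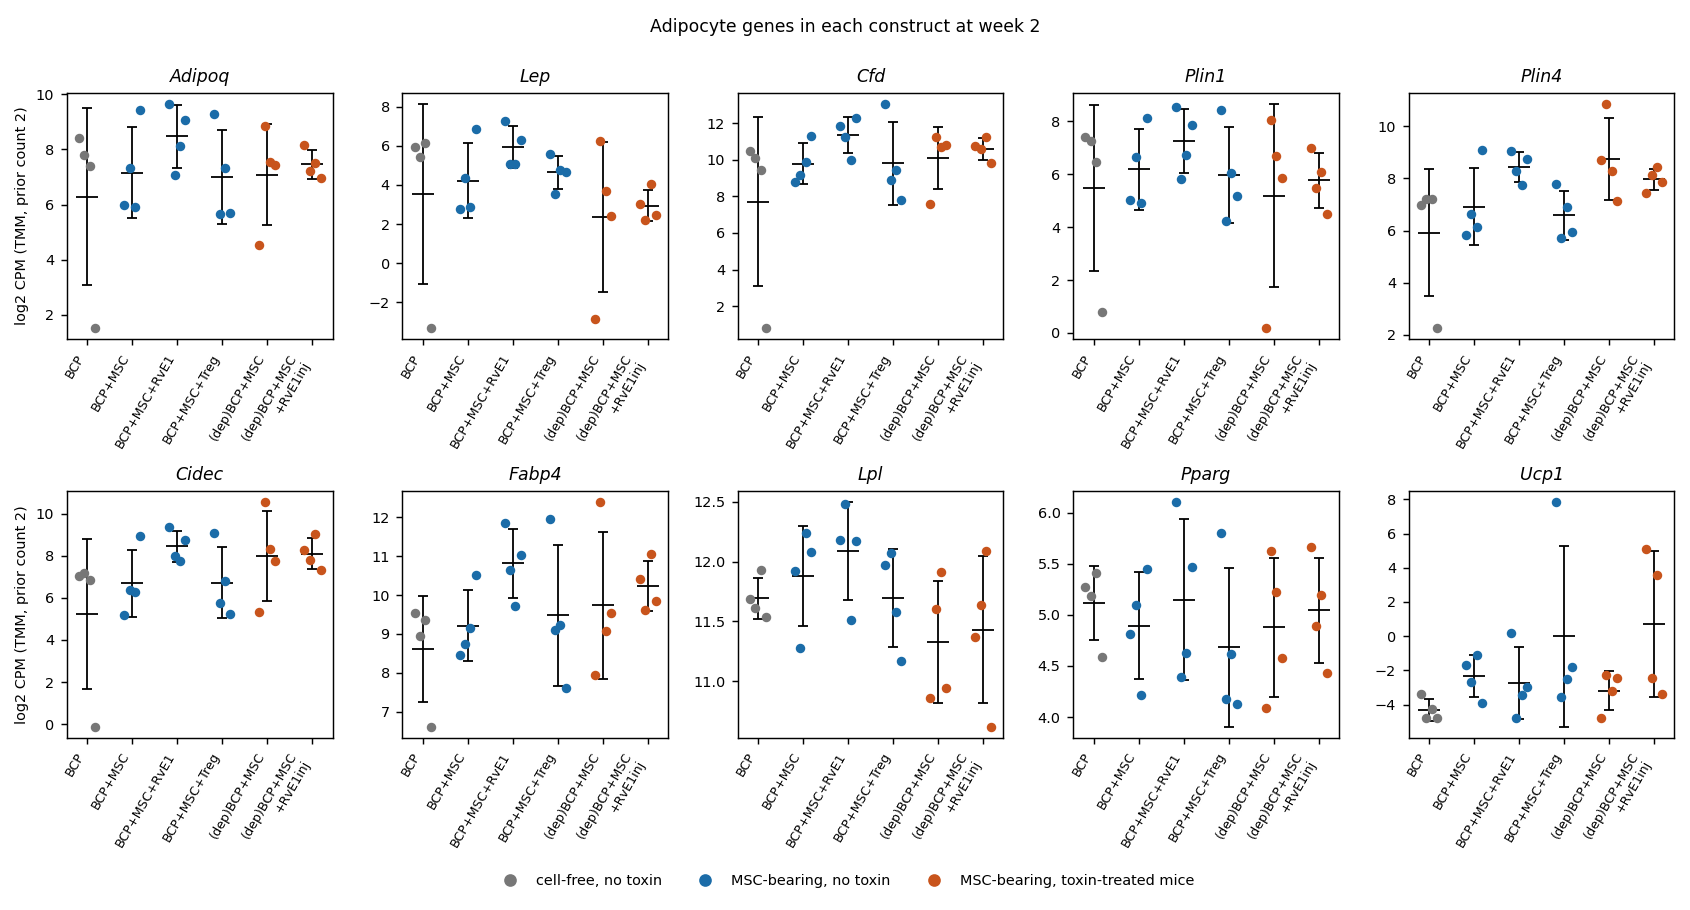
Level of each adipocyte gene in log2 CPM (vertical axis, each panel with its own range) in the 6 groups (horizontal axis). Points are animals, 4 per group, and the bars give the mean ± SD. Points of one group spread over most of each panel for Adipoq, Lep and Cidec, BCP replicate 4 lies far below the rest of its group, and Ucp1 is high in 3 animals.

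Of the 3 adipokines, Adipoq (chr16:23146536-23158028 on GRCm38, plus strand) encodes adiponectin, the hormone that sensitises tissues to insulin and is made almost only by adipocytes. The BCP samples had 337, 225, 170.1 and 2.83 CPM and the BCP+MSC samples 62.5, 160.4, 61.1 and 686 CPM (replicates 1 to 4). The RvE1-primed samples had 804, 134, 280.5 and 534 CPM, and the Treg-cocultured samples 624, 51.0, 162 and 52.2 CPM. Each group thus held animals with much and animals with little Adipoq, and all groups overlapped. In the toxin-treated mice it was at 22.8, 458, 185.5 and 175 CPM in (dep)BCP+MSC and at 283, 148, 182 and 125 CPM in (dep)BCP+MSC+RvE1inj. The last group had the narrowest spread, 185 ± 69.9 CPM against 438 ± 294 with RvE1 priming and 242 ± 299 with MSC alone (SD, n = 4 each).

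Lep (chr6:29060220-29073877, plus strand) encodes leptin, the satiety hormone whose level follows the fat store. It reached 61.7, 43.6, 69.4 and 0.063 CPM in BCP and 6.74, 20.0, 7.2 and 117.5 CPM in BCP+MSC. With priming by RvE1 it was at 153, 33.9, 34.1 and 79.2 CPM, and with Treg coculture at 48.1, 11.65, 26.8 and 25.3 CPM. After toxin the uninjected group had 0.0997, 76.1, 12.8 and 5.31 CPM and the injected group 8.02, 4.64, 16.4 and 5.51 CPM. BCP replicate 4 and (dep)BCP+MSC replicate 1 had 1 Lep count each. Apart from the second animal of (dep)BCP+MSC, the toxin-treated mice lay in the lower part of the range of the others. Cfd (chr10:79890853-79892655, plus strand) encodes adipsin, a serine protease of the complement system that adipocytes secrete. Its group medians were 883 CPM in BCP, 756 in BCP+MSC, 3022 in BCP+MSC+RvE1, 586 in BCP+MSC+Treg, 1710 in (dep)BCP+MSC and 1638 in (dep)BCP+MSC+RvE1inj, and single animals lay between 1.7 CPM in BCP replicate 4 and 8443 CPM in BCP+MSC+Treg replicate 1.

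Of the members, 3 coat or enlarge the lipid droplet. Plin1 (chr7:79720218-79732903, minus strand) encodes perilipin, which guards the droplet of white adipocytes against lipases, and it ran from 1.10 CPM in (dep)BCP+MSC replicate 1 to 377 CPM in BCP+MSC+RvE1 replicate 1, with group medians between 51.4 CPM (Treg coculture) and 171 CPM (RvE1 priming). Cidec (chr6:113424634-113435760, minus strand) encodes a protein through which small droplets fuse into large ones. Its level was 130.3, 145, 113.5 and 0.881 CPM in BCP and 37.1, 81.8, 76.55 and 489 CPM in BCP+MSC, against 665, 254, 217 and 424 CPM with RvE1 priming and 539, 54.0, 113 and 38.1 CPM with Treg coculture. In the toxin-treated mice it was at 39.7, 1489, 319.7 and 216 CPM in (dep)BCP+MSC and at 314, 221, 522 and 158 CPM in (dep)BCP+MSC+RvE1inj. All 4 animals of BCP+MSC+RvE1 and all 4 of (dep)BCP+MSC+RvE1inj were above all 4 of BCP, and the highest single value was the second animal of (dep)BCP+MSC. Plin4 (chr17:56100591-56109803, minus strand), a perilipin of small and new droplets, followed a similar order. The BCP samples had 126, 149, 148 and 4.72 CPM, the BCP+MSC samples 56.0, 99.6, 70.1 and 542 CPM, the RvE1-primed samples 529, 309.5, 213 and 431 CPM and the Treg-cocultured samples 218, 52.2, 120.2 and 61.9 CPM. After toxin its values were 418, 1857, 309 and 141 CPM without injection and 174, 279.8, 344 and 234 CPM with it. Here too BCP+MSC+RvE1 and (dep)BCP+MSC+RvE1inj lay wholly above BCP. For neither group was the share of all genes that lay wholly above BCP counted, so no excess among the members can be read from this. (dep)BCP+MSC replicate 1, which had little Adipoq, Lep and Plin1, was above every BCP+MSC+Treg sample in Plin4. The exons of Plin4 share 6 bases with Hdgfl2 on the other strand, 0.1% of their length, and the other members share none with another gene.

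The sequence upstream of Adipoq and of the members that later moved against it is given from RefSeq (GRCm38.p6), as the 250 bases before the annotated start, 5′ to 3′ on the strand of the gene. Capitals mark TTGCNNAA, a core that C/EBP factors bind, searched on both strands. For Cidec the outermost of 2 annotated starts is shown.
Adipoq (chr16:23146286-23146535, plus strand): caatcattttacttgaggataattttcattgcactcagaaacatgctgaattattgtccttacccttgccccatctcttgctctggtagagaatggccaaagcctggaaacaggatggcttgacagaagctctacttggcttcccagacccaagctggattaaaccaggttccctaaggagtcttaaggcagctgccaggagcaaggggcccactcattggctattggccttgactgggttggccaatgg
Lep (chr6:29059971-29060220, plus strand): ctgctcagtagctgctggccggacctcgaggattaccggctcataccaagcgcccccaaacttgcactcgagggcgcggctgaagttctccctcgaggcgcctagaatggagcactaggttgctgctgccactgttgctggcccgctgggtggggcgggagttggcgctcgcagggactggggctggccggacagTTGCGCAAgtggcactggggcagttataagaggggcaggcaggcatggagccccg
Cidec (chr6:113435761-113436010, minus strand): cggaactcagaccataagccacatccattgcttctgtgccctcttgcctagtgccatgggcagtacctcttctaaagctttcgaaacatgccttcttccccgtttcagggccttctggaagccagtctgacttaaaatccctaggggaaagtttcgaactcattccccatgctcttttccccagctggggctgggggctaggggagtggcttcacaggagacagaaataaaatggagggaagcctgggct
Plin4 (chr17:56109783-56110032, minus strand): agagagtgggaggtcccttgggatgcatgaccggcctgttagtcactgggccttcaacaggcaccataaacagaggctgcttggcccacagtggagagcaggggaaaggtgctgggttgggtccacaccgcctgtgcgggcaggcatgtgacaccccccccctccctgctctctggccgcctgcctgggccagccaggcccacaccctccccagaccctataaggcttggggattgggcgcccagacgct
TTGCNNAA stood once in the Lep window, where it reads the same on both strands, and in 9.56% of 32851 promoter windows of this annotation. It was not in the other 3 windows shown, and it stood once in the window of the second annotated start of Cidec (chr6:113434765-113435014), which is not shown. AGGTCA, the core that nuclear receptors such as PPARγ bind, was in none of the 4 and in 14% of all windows, and a direct repeat of this core around a spacer base was in 0.0335%. The tables held 8 of the 10 members, without an entry for Fabp4 and Lpl.

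A further 2 members handle fatty acids. Fabp4 (chr3:10204088-10208576, minus strand) encodes the fatty acid carrier of the adipocyte cytoplasm, which macrophages also make. Bare BCP gave 742, 494, 652 and 98.6 CPM and BCP+MSC 349, 429, 571 and 1460 CPM. RvE1 priming gave 3690, 1596, 849 and 2093 CPM and Treg coculture 3988, 552, 604 and 193 CPM. The toxin-treated groups had 245, 5349, 542 and 749 CPM without injection and 1350, 782, 2114 and 919.8 CPM with injection of RvE1. The samples of BCP+MSC+RvE1 and of (dep)BCP+MSC+RvE1inj lay above all BCP samples, and the other groups overlapped with BCP. Again the share of all genes that lay wholly above BCP was not counted. Lpl (chr8:68880491-68907448, plus strand) encodes lipoprotein lipase, which frees fatty acids from circulating triglyceride and is made by muscle and macrophages too. Its group medians were 3217 CPM in BCP, 4094 in BCP+MSC, 4637 in BCP+MSC+RvE1, 3537 in BCP+MSC+Treg, 2536 in (dep)BCP+MSC and 2919 in (dep)BCP+MSC+RvE1inj. In BCP replicate 4, which was lowest in Adipoq, Lpl was at 2977 CPM, close to the rest of its group. Pparg (chr6:115360951-115490399, plus strand) ran from 16.95 CPM in (dep)BCP+MSC replicate 1 to 68.6 CPM in BCP+MSC+RvE1 replicate 1, with group medians between 21.4 CPM (Treg coculture) and 37.4 CPM (bare ceramic).

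Ucp1 (chr8:83290352-83298452, plus strand) was near the floor in most animals and abundant in a few. It was at 225 CPM, or 17159 counts, in BCP+MSC+Treg replicate 1, while the other 3 animals of that group had 0.0486, 0.14 and 0.247 CPM. The injected toxin-treated group had 34.4, 0.148, 11.7 and 0.0592 CPM, which rest on 2945 counts in replicate 1 and 157 in replicate 3. BCP+MSC+RvE1 replicate 1 had 1.12 CPM from 82 counts, and the other 3 of that group 0, 0.0567 and 0.0894 CPM. No sample of BCP, BCP+MSC or (dep)BCP+MSC was above 0.43 CPM. So 3 animals in 2 of the groups carried Ucp1 at more than 10 CPM, and the animals beside them in the same groups did not. The 8 genes most like Ucp1 over the 24 samples, among 21059 genes with a mean of 0.1 CPM or more, were Cidea (Pearson r = 0.852 of log2 CPM), 9130214F15Rik (0.838), Coq6 (0.828), Slc27a2 (0.819), Otop1 (0.812), Acaa2 (0.809), Acad10 (0.804) and Acsf3 (0.803), all from samples that share their libraries with Ucp1. Most animals were near the floor in Ucp1, and r was not computed without the 3 high ones. Cidea, a droplet protein of brown adipocytes, was highest at 331 CPM in BCP+MSC+Treg replicate 1. It was at 228 and 223 CPM in (dep)BCP+MSC+RvE1inj replicates 1 and 3 and at 17.1 CPM in BCP+MSC+RvE1 replicate 1. Its lowest sample had 0. 9130214F15Rik did not exceed 1.29 CPM, and Acaa2, a mitochondrial thiolase of fatty acid oxidation, ran from 39.1 to 313.5 CPM. With Ucp1 the other members had r between 0.138 (Plin4) and 0.5 (Fabp4).

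**Figure D2:**
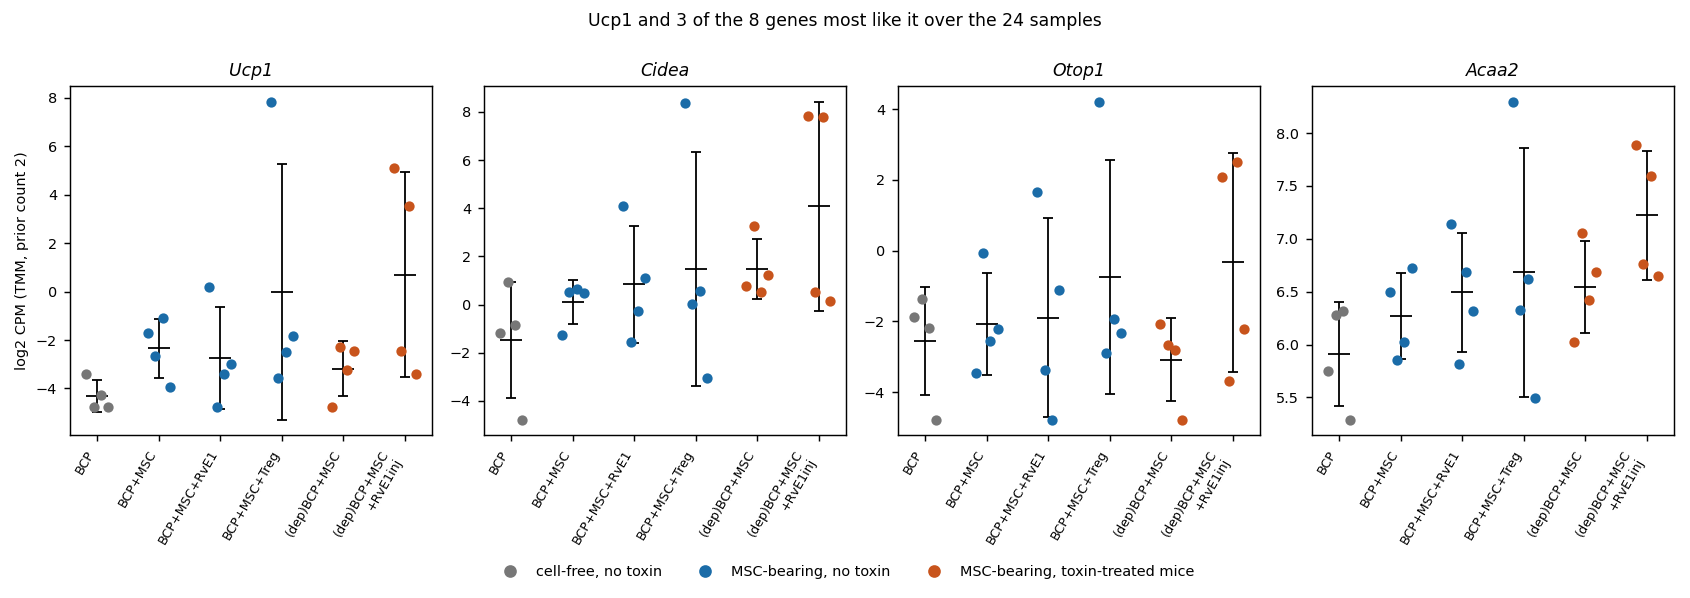
Log2 CPM of Ucp1 and of Cidea, Otop1 and Acaa2, which are 3 of the 8 genes most like it (vertical axis), in the 6 groups (horizontal axis). Points are animals and the bars give the mean ± SD of 4, and BCP+MSC+Treg replicate 1 with (dep)BCP+MSC+RvE1inj replicates 1 and 3 hold the 3 highest Ucp1 values.

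Of the other 9 members, 7 rose and fell with Adipoq from animal to animal. Over the 24 samples Pearson's r of log2 CPM with Adipoq was 0.93 for Plin1, 0.92 for Cidec, 0.91 for Cfd, 0.86 for Lep, 0.83 for Fabp4, 0.76 for Plin4 and 0.71 for Pparg, and Spearman's rho was 0.97, 0.83, 0.83, 0.77, 0.73, 0.6 and 0.88 in the same order. Their permutation p adjusted over 13 relations was 2.2e-05 for r, and 0.00033 for Plin4, where 1e-05 is the smallest unadjusted p that 100000 permutations can give. The adjusted p of rho was between 3.2e-05 and 0.0042. After removal of BCP replicate 4 and (dep)BCP+MSC replicate 1, the samples lowest in Adipoq, r stayed between 0.69 (Lep) and 0.94 (Plin1), and with the group means taken out it was between 0.77 and 0.96. Lpl (r = 0.28, rho = 0.3, adjusted p = 0.23 and 0.22 by permutation) and Ucp1 (r = 0.36, rho = 0.28, adjusted p = 0.14 and 0.24) did not pass this test, and r fell to 0.17 and 0.26 without those 2 samples. Markers of other tissues were taken as the mean log2 CPM of each list. Those of muscle (r = 0.27, rho = 0.21), skin (-0.03 and 0.16) and macrophages (-0.13 and -0.23) did not pass either, with adjusted p of 0.23, 0.87 and 0.6 for r and 0.36, 0.46 and 0.34 for rho by permutation. Their r without the 2 samples was 0.2, 0.1 and -0.42. The 12 endothelial markers had r = 0.31 (adjusted p = 0.2) and rho = 0.49 (adjusted p = 0.024, permutation), with r = 0.46 without the 2 samples. Within single groups there were too few animals for a correlation. Among 14772 genes with a mean of 1 CPM or more, the 8 closest to Adipoq were Ankef1 (r = 0.985), Ces1d (0.977), B3galt2 (0.976), Ces1f (0.975), A530016L24Rik (0.968), Acvr1c (0.965), Retn (0.961), which encodes the adipokine resistin, and Adhfe1 (0.953). Plin1 came at rank 11, Cidec at 18, Cfd at 20, Lep at 55, Fabp4 at 81, Plin4 at 172, Pparg at 261 and Lpl at 4095.

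**Figure D3:**
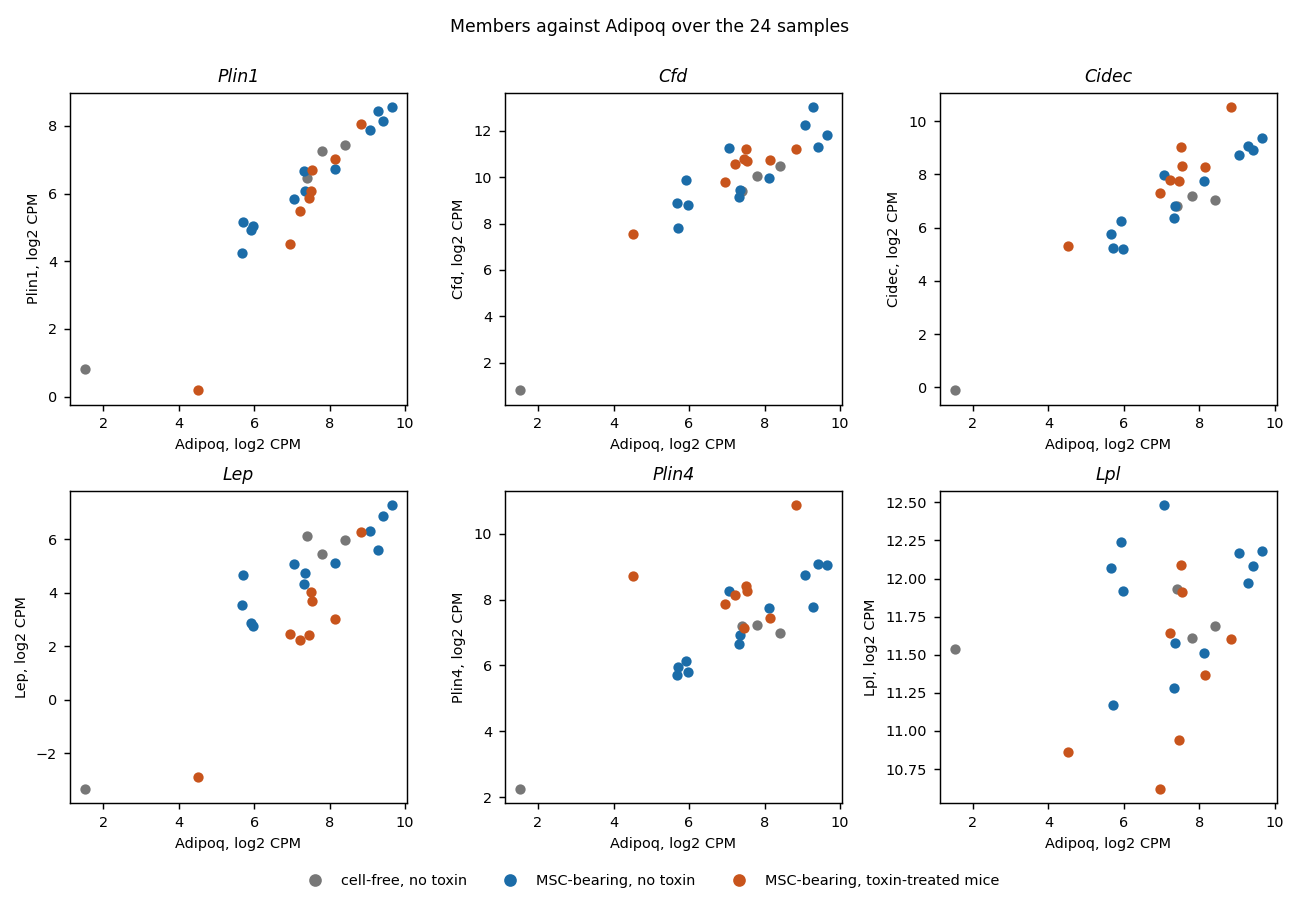
Log2 CPM of 6 members (vertical axes) against that of Adipoq (horizontal axes) in the 24 samples, coloured by whether the construct carried MSC and the mouse received toxin. Plin1 and Cfd rise with Adipoq, with Plin1 of (dep)BCP+MSC replicate 1 below the other samples, Lpl hardly moves with it, and the toxin-treated samples tend to lie low for Lep and high for Cidec and Plin4 at a given Adipoq level.

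The groups were then compared with edgeR's quasi-likelihood test in one model over all genes, where a gene was called at a Benjamini-Hochberg adjusted p under 0.05 with a log2 fold change beyond 1. In the comparisons of MSC, RvE1-primed MSC and Treg-cocultured MSC with BCP and with each other, and of (dep)BCP+MSC+RvE1inj with (dep)BCP+MSC, 0 of the 10 members were called, and 0.0% of all genes tested were called in each of these 7. At an unadjusted p under 0.05 with the same fold, 0 members passed for BCP+MSC against BCP (background 4.32%), 1 for BCP+MSC+RvE1 against BCP (8.54%), 1 for BCP+MSC+Treg against BCP (5.85%), 0 for BCP+MSC+RvE1 against BCP+MSC (2.5%), 1 for BCP+MSC+Treg against BCP+MSC (2.56%) and 1 against BCP+MSC+RvE1 (2.22%), and 1 for the injected against the uninjected toxin-treated group (5.13%). The single member was Fabp4 for BCP+MSC+RvE1 against BCP and Ucp1 in the other cases. The log2 fold change of Ucp1 was 8.07 for BCP+MSC+Treg against BCP+MSC and 7.33 against BCP+MSC+RvE1 (edgeR, adjusted p = 1 in both), and became -0.76 and -1.43 without BCP+MSC+Treg replicate 1. For the injected against the uninjected toxin-treated group it was 6.69 and became 0.07 without the 3 animals high in Ucp1. For BCP+MSC+Treg against BCP the sign did not turn without them. DESeq2 called 0 members in these comparisons except Ucp1 for BCP+MSC+Treg against BCP (adjusted p = 8.2e-05), where edgeR gave an adjusted p of 0.614. No fold is given for Ucp1 against BCP, whose 4 samples had 1, 0, 2 and 0 counts.

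The largest shift of the members as a whole was between BCP+MSC+RvE1 and BCP, the comparison of primed cells with bare ceramic. All 10 members, with Ucp1 near the floor in BCP among them, had positive log2 fold changes, with a median of 1.52, where the median of all genes was 0.03 and 51.6% were positive. These are not 10 independent results, since most members rose and fell with Adipoq. With log2 CPM of Adipoq as a covariate, a fit added after the values were seen, the median of the other 9 was 0.65. Plin1 (-0.61), Lep (-0.50) and Pparg (-0.51) were then negative and the others positive, and 0 were called. For 3 members the samples did not overlap between BCP+MSC+RvE1 and BCP (exact permutation test, p = 0.0286 for each of Fabp4, Plin4 and Cidec, the smallest p that 4 against 4 allows, unadjusted). The share of all genes without overlap between these groups was not counted, so no excess among the members can be read from this. In the edgeR model without the covariate Fabp4 differed by 2.05 ± 0.95 (log2 fold change ± SE, adjusted p = 0.313), Plin4 by 1.79 ± 0.90 (adjusted p = 0.335), Cidec by 2 ± 1.17 (adjusted p = 0.386) and Adipoq by 1.25 ± 1.09 (adjusted p = 0.563), so none passed. The log2 fold change of Adipoq was 0.84 without BCP replicate 4, the animal with almost no adipocyte transcripts, and 0.78 without BCP+MSC+RvE1 replicate 1. The members also had a positive median against BCP+MSC (0.90, with 10 of 10 positive, against -0.04 over all genes, of which 46.5% were positive). Among them Ucp1, at 0.73 ± 2.04, rested mainly on 82 counts in BCP+MSC+RvE1 replicate 1. Its mean log2 CPM was lower in BCP+MSC+RvE1 (-2.75) than in BCP+MSC (-2.34). The 16 skeletal muscle markers had medians close to these, 1.46 against BCP and 1.06 against BCP+MSC, and their summed level was 26320 to 46040 CPM in BCP+MSC+RvE1 (median 35180) and 5631 to 23850 CPM in BCP (median 11280). Their part in the shift of the members was not tested. The comparisons with BCP share its 4 samples. The median over the members was 0.45 for BCP+MSC against BCP, 0.23 for BCP+MSC+Treg against BCP, -0.01 for BCP+MSC+Treg against BCP+MSC, -0.67 for BCP+MSC+Treg against BCP+MSC+RvE1 and -0.30 for the injected against the uninjected toxin-treated group, where the medians of all genes lay between -0.03 and 0.06.

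Toxin treatment was followed in 3 comparisons. Against BCP+MSC, 0 of 10 members were called in (dep)BCP+MSC, where 3.14% of all genes were, and 0 in (dep)BCP+MSC+RvE1inj, where 0.661% were. At an unadjusted p the counts were 0 (background 13.2%) and 1 (9.45%), the 1 being Ucp1, which DESeq2 called in the second comparison. The third comparison set the 8 toxin-treated mice against the 12 untreated mice with MSC. The sides also differ in other ways, since 8 of the 12 untreated constructs held RvE1-primed or Treg-cocultured MSC and 4 of the 8 treated mice were injected with RvE1. Here 0 of 10 members were called, while 7.86% of all genes were, and 0 members passed at an unadjusted p with the fold (15.2%). DESeq2 called 0 members here as well. The lowest adjusted p among the members was that of Lpl, under the fold threshold at -0.47 ± 0.20 (log2 fold change ± SE, edgeR, adjusted p = 0.124). Past the fold but not the adjusted p were Plin4 at 1.06 ± 0.55 (adjusted p = 0.218) and Lep at -1.59 ± 0.85 (adjusted p = 0.232). Adipoq itself was at -0.54 ± 0.70 (adjusted p = 0.673). In single-gene tests of log2 CPM, Lep (exact permutation test, unadjusted p = 0.0134) and Lpl (p = 0.0267) were lower with toxin, with overlapping groups in both. The labels give no batch or date, so toxin and any other difference between these mice, the priming, coculture and injection among them, cannot be told apart.

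Since the amount of Adipoq differed so much between animals, the same model was fitted with log2 CPM of Adipoq as a covariate, a choice made after the values had been seen. At equal Adipoq, 3 of the other 9 members were called between toxin-treated and untreated mice, beside 8.15% of all genes. Lep was lower by a log2 fold change of -1.64 ± 0.435 (SE, edgeR, adjusted p = 0.0163). This call was lost without (dep)BCP+MSC replicates 4 and 5, at -1.42 (adjusted p = 0.0659), and likewise when the replicate number was a block, a fit that leaves out the same 2 animals (-1.48, adjusted p = 0.0637). Cidec was higher by 1.05 ± 0.24 (adjusted p = 0.00417) and Plin4 by 1.47 ± 0.33 (adjusted p = 0.00486). Cidec fell under the fold threshold without BCP+MSC replicate 2 (0.998), without (dep)BCP+MSC replicate 2 (0.861), without (dep)BCP+MSC+RvE1inj replicate 3 (0.857) and without the 3 animals high in Ucp1 (0.91). Plin1 (-0.46 ± 0.25, adjusted p = 0.238), Lpl (-0.47 ± 0.20, adjusted p = 0.13), Fabp4 (0.40 ± 0.34, adjusted p = 0.476), Cfd, Pparg and Ucp1 were not called. Without the covariate Lep had been at -1.59 ± 0.85, Cidec at 0.77 ± 0.72 and Plin4 at 1.06 ± 0.55, so the larger change was in the standard errors. Against BCP+MSC alone, 2 of 9 members were called at equal Adipoq in (dep)BCP+MSC, where 3.5% of all genes were, namely Cidec at 1.37 ± 0.38 (adjusted p = 0.0384) and Plin4 at 2.34 ± 0.54 (adjusted p = 0.0157), while Lep was at -0.94 ± 0.645 (adjusted p = 0.437). These 2 calls were not firm: 0 were left in the model of only these 2 groups, and 0 without BCP+MSC replicate 1 or 2 or without (dep)BCP+MSC replicate 1 or 2, with log2 fold changes from 1.01 to 1.73 for Cidec and from 1.64 to 2.7 for Plin4 when each animal was left out in turn. For (dep)BCP+MSC+RvE1inj 0 of 9 were called by edgeR and by DESeq2, where 0.821% of all genes were, with Lep at -1.47 ± 0.64 (adjusted p = 0.305), Cidec at 1.13 ± 0.38 (adjusted p = 0.162) and Plin4 at 0.88 ± 0.51 (adjusted p = 0.45).

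**Figure D4:**
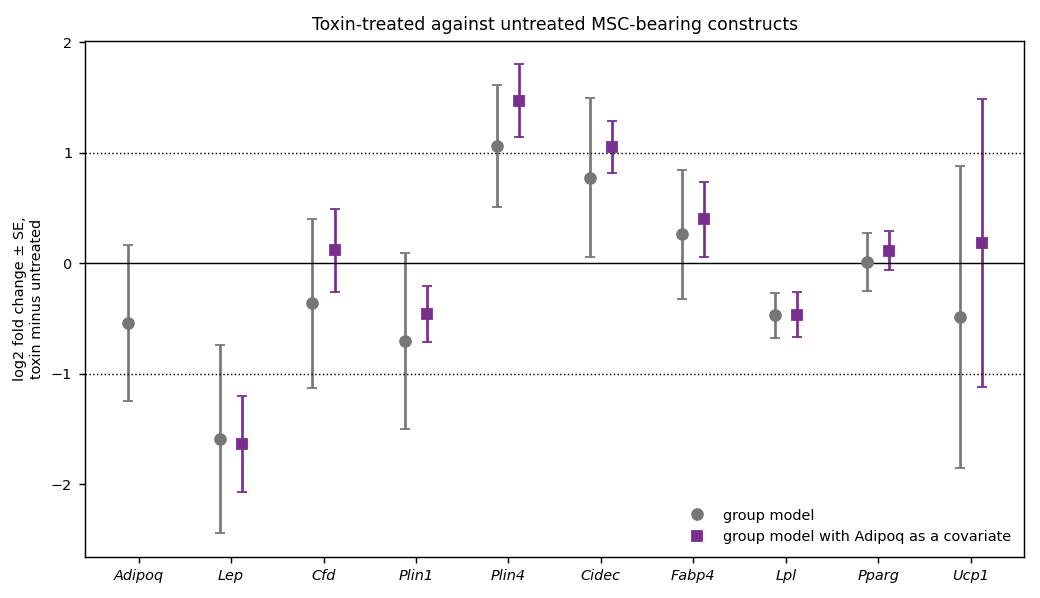
Log2 fold change ± SE of each member (horizontal axis) between the 8 toxin-treated and the 12 untreated mice with MSC-bearing constructs. Circles are from the model of groups and squares from the same model with Adipoq as a covariate, and dotted lines mark the fold threshold of 1. With the covariate Lep lies at -1.64, Cidec at 1.05 and Plin4 at 1.47, with shorter error bars.

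The counts of each animal can be set against its Adipoq counts without a model, which uses the same data and is no separate test. For every 100 Adipoq counts, the untreated mice with MSC had 7.71 to 48.5 Lep counts, with a median of 15.7. The toxin-treated mice had 0.437, 16.6, 6.90 and 3.03 in (dep)BCP+MSC and 2.83, 3.13, 9.02 and 4.41 in (dep)BCP+MSC+RvE1inj, where the first value rests on 1 Lep count. So 6 of the 8 lay below all 12 untreated mice, the median was 3.77, and the second animal of (dep)BCP+MSC was within the untreated range. Cidec had 51.0 to 189.6 counts per 100 Adipoq counts in untreated mice (median 78.4), and 174, 325, 172 and 123 in (dep)BCP+MSC. With injection it had 111, 149, 287 and 127. All 8 toxin-treated animals were above the untreated median, 2 were above every untreated animal, and the medians differed 2.05-fold. Plin4 had 35 to 231 counts per 100 Adipoq counts in untreated mice (median 79.9), 1832, 405.5, 167 and 80.55 in (dep)BCP+MSC and 61.4, 188.5, 189 and 188 in (dep)BCP+MSC+RvE1inj. Of the 8, 7 were above the untreated median and 2 above every untreated animal. Fabp4 and Cfd, which the model did not call, also had 7 of 8 above the untreated median, with 0 above every untreated animal. Their medians differed 1.48-fold and 1.49-fold. Above the untreated median were 6 of 8 for Pparg, 4 for Lpl and 3 for Ucp1. In BCP the same ratios were 2.22 to 40.8 for Lep, 31.1 to 66.7 for Cidec and 37.4 to 167 for Plin4. Plin1, which followed Adipoq most closely, had 37.1 to 68.8 counts per 100 in untreated mice (median 45.55) and 4.80 to 57.85 in toxin-treated mice (median 35.2), 5 of which were below all untreated animals.

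**Figure D5:**
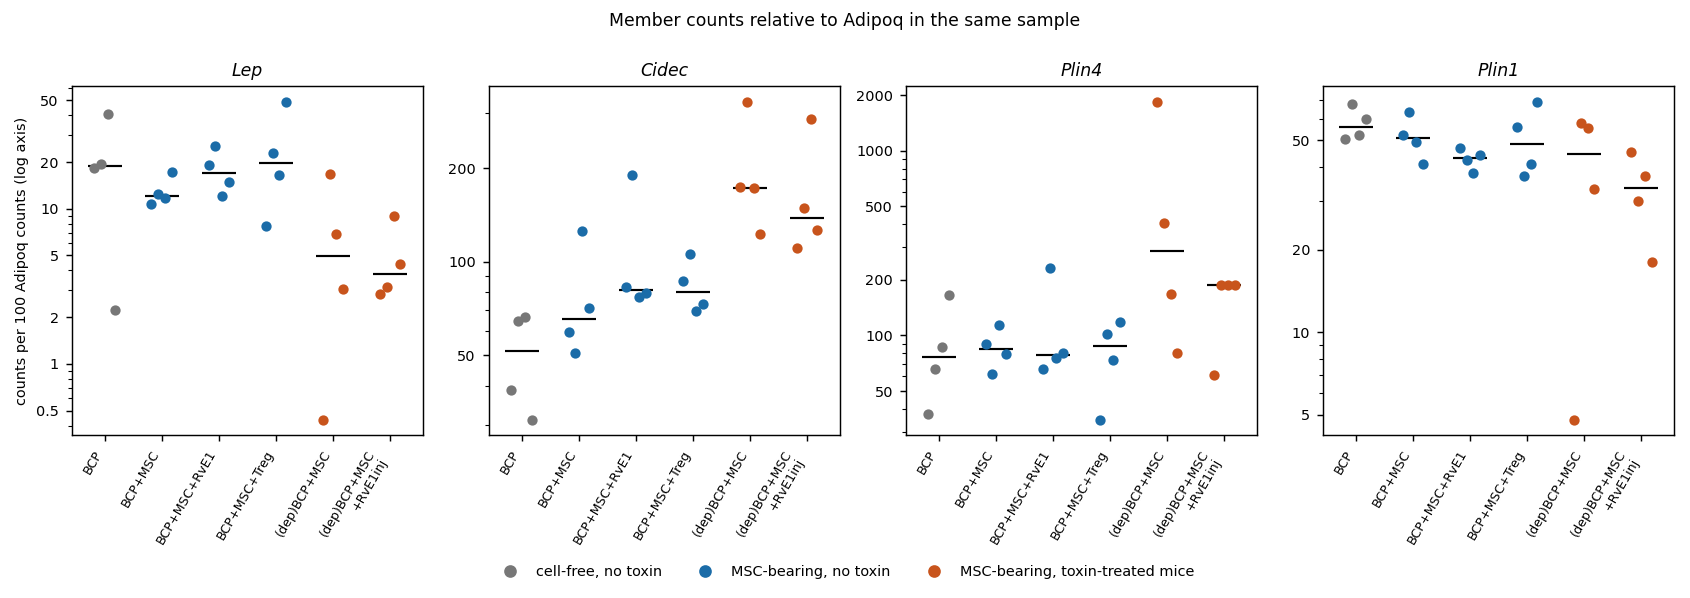
Counts of Lep, Cidec, Plin4 and Plin1 per 100 Adipoq counts of the same sample (vertical axis, logarithmic) in the 6 groups. Points are animals and lines are group medians. For Lep 6 of the 8 toxin-treated animals lie below all untreated animals with MSC, whose lowest value is 7.71, and for Cidec all 8 lie above the untreated median of 78.4.

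Other genes of adipocytes and of lipid handling moved between toxin-treated and untreated mice in the model without the covariate, where 4.58% of all genes tested were called higher and 3.28% lower and the median log2 fold change was -0.02. Of 14 genes of the lipid droplet and lipolysis, 2 rose and 1 fell, with a median of 0.39. Plin5, a perilipin of tissues that oxidise fat, rose by 2.25 ± 0.66 (log2 fold change ± SE, edgeR, adjusted p = 0.0289), and Pnpla2, which encodes the lipase that begins triglyceride breakdown, rose by 1.34 ± 0.43 (adjusted p = 0.0423). Pnpla3, a related gene of fed adipocytes and liver, was at 8.13 to 161 CPM in untreated mice and 0.997 to 18.6 CPM in treated mice, a log2 fold change of -3.28 ± 0.84 (adjusted p = 0.014). Plin2, the droplet coat of most cells, was at 0.71 ± 0.19 (adjusted p = 0.0133) and under the fold threshold. Pnpla2 was named after its values had been seen. At equal Adipoq, where 4.88% of all genes were called higher and 3.27% lower, the same 3 genes of this list were called, Plin5 at 2.40, Pnpla2 at 1.67 and Pnpla3 at -2.63.

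Of 17 genes of fatty acid and triglyceride synthesis, 2 rose and 0 fell, with a median of -0.57. Lpin1, whose phosphatase acts in triglyceride synthesis and whose protein also coactivates PPAR factors, rose by 1.59 ± 0.24 (edgeR, adjusted p = 0.000139), from a median of 64.4 CPM in untreated to 154 CPM in treated mice. Acacb, the acetyl-CoA carboxylase of mitochondria, which restrains fatty acid oxidation, rose by 1.78 ± 0.45 (adjusted p = 0.0121). Scd2 was at 0.43 ± 0.19 (adjusted p = 0.136). Of 16 genes of lipid and glucose uptake, 1 rose and 0 fell, with a median of -0.23, and 2 rose in (dep)BCP+MSC against BCP+MSC (1.34% of all genes higher). There Vldlr, a receptor for triglyceride-rich lipoproteins, rose by 1.82 ± 0.34 (adjusted p = 0.00312) and Insr, the insulin receptor, by 1.01 ± 0.27 (adjusted p = 0.0345), while Lmf1, which Lpl needs to mature, was at -0.62 ± 0.21 (adjusted p = 0.096). Of 15 regulators of adipocyte formation, 1 rose and 0 fell, with a median of -0.15: Klf15 was at 2.80 to 30.45 CPM in untreated and 20.5 to 123 CPM in treated mice, a log2 fold change of 2.20 ± 0.42 (adjusted p = 0.00164). Rxra, the partner of PPARγ (0.36 ± 0.11, adjusted p = 0.0278), and Ebf1 (-0.56 ± 0.21, adjusted p = 0.0697) were not called.

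Of 15 other adipokines and adipocyte surface genes, 1 rose and 4 fell, with a median of -0.30. Nnat, an imprinted gene abundant in white fat, fell by 3.27 on the log2 scale (SE 0.63, edgeR, adjusted p = 0.00195), and its range of 1.79 to 12.65 CPM in treated mice lay below that of 15.9 to 232 CPM in untreated ones. Sncg, an adipocyte synuclein, was at -2.02 ± 0.47 (adjusted p = 0.00772), and Itih4, which encodes a protease inhibitor of plasma, rose by 2.32 ± 0.40 (adjusted p = 0.000383). Named after their values had been seen, Rbp4, a retinol carrier that adipocytes release, was at -1.85 ± 0.475 (adjusted p = 0.0138) and Npr3, the clearance receptor for natriuretic peptides, at -1.87 ± 0.61 (adjusted p = 0.047). Of 11 genes of adipocyte progenitors, 0 rose and 4 fell, with a median of -0.42. Cd34 (-1.12 ± 0.17, adjusted p = 8.6e-05), Pi16 (-1.51 ± 0.25, adjusted p = 0.000316) and Dlk1 (-3.04 ± 0.61, adjusted p = 0.00232) fell, as did Dpp4 (-1.05 ± 0.31, adjusted p = 0.0287), named after its values had been seen. Of 16 thermogenic genes other than Ucp1, 0 rose and 1 fell, which was Ckb, a creatine kinase found in many cell types (-1.92 ± 0.37, adjusted p = 0.00146), while Gk (-0.56 ± 0.17, adjusted p = 0.0249) and Cox7a1 (-1.86 ± 0.62, adjusted p = 0.0522) were not called. The 10 markers that define adipocytes had 0 calls in either direction and a median of -0.45.

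Some single markers of other tissues were also called between toxin-treated and untreated mice. Over all genes 4.58% were called higher and 3.28% lower. Of 15 skin and hair genes 2 rose and 0 fell, and the median of their summed level was 11.2 CPM in the untreated mice with MSC (4.36 to 69.99) and 51.4 CPM in the toxin-treated mice (10.5 to 537, highest in (dep)BCP+MSC replicate 1). Of 10 osteoblast genes 0 rose and 3 fell, with sums of 10100 CPM in untreated and 5356 CPM in treated mice at the median. Most of these sums was Col1a1 (medians of 5460 and 2344 CPM) and Spp1 (4723 and 3688 CPM). Sp7 (0.147 and 0.0614 CPM) and Ibsp (0.521 and 0.0514 CPM) were far lower, so the sums do not show the amount of osteoblasts. Of 16 muscle genes 0 rose and 1 fell, with 26780 and 32340 CPM. Of 8 sebaceous gland genes 1 rose, with sums of 279 and 225 CPM that were mostly Soat1 (medians of 275 and 223 CPM). The 12 macrophage genes (10340 and 8798 CPM) and 12 endothelial genes (714 and 552 CPM) had 0 calls. Xist was above the Y-linked genes in 2 of the 8 treated and 4 of the 12 untreated mice with MSC. The groups were uneven, with 3 of 4 mice in BCP+MSC, 0 in BCP+MSC+RvE1, 1 in BCP+MSC+Treg, 2 in (dep)BCP+MSC and 0 in (dep)BCP+MSC+RvE1inj. Among the toxin-treated mice, (dep)BCP+MSC replicate 1 had the highest muscle sum (45740 CPM) and the most Plin4 per 100 Adipoq counts (1832). It also had the least Adipoq of them (22.8 CPM). (dep)BCP+MSC+RvE1inj replicate 1 was lowest in both (8716 CPM and 61.4). Replicate 4 of that group, next lowest in muscle (12400 CPM), had 188. Its replicates 2 and 3 had muscle sums of 33590 and 41330 CPM with 188.5 and 189. In (dep)BCP+MSC replicates 2, 4 and 5 the muscle sums were 32440, 29320 and 32250 CPM with 405.5, 167 and 80.55. The part of the markers of other tissues in the differences of Lep, Cidec and Plin4 was not tested, nor was that of sex at equal Adipoq.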

How the data were processed

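Bulk RNA sequencing of whole constructs at week 2 was analysed for 24 mice in 6 groups of 4, grouped by the labels. The authors made stranded mRNA libraries, aligned read pairs with HISAT2 2.0.5 and counted them on exons with featureCounts 1.5.2 against a GENCODE annotation of GRCm38. Raw counts per gene, not normalized, were deposited by the authors. The counting command named no strand, multiple-alignment or overlap option, so strand was ignored and reads with several alignments were left out. Picard and STAR are named in the submitters' processing notes as well.

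Counts were scaled by TMM to CPM. Genes reaching 10 counts in total were tested with edgeR 4.0.16 (R 4.3.3, limma 3.58.1), robust quasi-likelihood, in one model of 6 groups with 10 comparisons. The log2 CPM used a prior count of 2. Alternatives were RLE, other filters, DESeq2 1.42.0, covariates for library size and sex-linked genes, a replicate block, only the groups compared, and each animal left out. The test at equal Adipoq and fits without the animals lowest in Adipoq, those highest in Ucp1, or (dep)BCP+MSC replicates 4 and 5 were added after the data were seen. In simulated counts for (dep)BCP+MSC against BCP+MSC (29939 genes, all given the same spread between animals), edgeR called 69 of 100 genes changed by 2 on the log2 scale. It called 100 of 100 changed by 3, and 6 unchanged genes. How often such changes would be called in the 10 members was not tested. In this comparison the standard errors of their log2 fold changes ran from 0.311 (Lpl) to 2.37 (Ucp1). They were 0.409 for Pparg, 1.07 for Adipoq, 1.16 for Cidec and 1.25 for Lep. Single genes were compared by two-sided exact permutation tests. Numbers of replicates did not pair the samples: over 50 pairs with the same number, deviations from group means correlated between -0.619 and 0.625 (median 0.00449).

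The members and lists were chosen with earlier results of these data known. All 10 members are named, and from each list on lipid and adipocyte genes the 3 with the smallest unadjusted p in the comparison where the list had most calls. Total counts, from 8482701 to 144417743 per sample, set the precision. Positions are from the GENCODE annotation and promoter sequences from RefSeq, GRCm38.p6. Python 3.11.15, scipy 1.17.1 and matplotlib 3.10.9 were used.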

Additional observations from a re-analysis of the deposited data

Results flagged for a closer look

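In each group of 4 the highest or lowest animal was tested for a gap to the others that is large against the range of the group, in 60 groups of gene and condition. Of these, 8 were marked, where chance alone marks about 1 in 20, that is 3 of 60. In BCP replicate 4, 6 members were marked as low: Adipoq at 2.833 CPM (170.1 to 337 in the other 3 animals), Plin1 at 1.7 CPM (88.85 to 171), Plin4 at 4.721 CPM (126 to 149), Lep at 0.06295 CPM (43.6 to 69.4), Cfd at 1.7 CPM (687 to 1427) and Cidec at 0.8813 CPM (113.5 to 145). These 6 values are from 1 animal and are not independent of each other. Cfd was marked as low in (dep)BCP+MSC replicate 1, at 189.9 CPM against 1659 to 2423 CPM. Ucp1 was marked as high in BCP+MSC+Treg replicate 1, at 225.4 CPM against 0.0486 to 0.247 CPM.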

How the results depend on the processing

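Of 285 counts of members called under an alternative, 267 were within 1.5 times the main count. At an unadjusted p with the fold 1 member passed for BCP+MSC+RvE1 against BCP, 1 for BCP+MSC+Treg against BCP, 1 against BCP+MSC and 1 against BCP+MSC+RvE1, and 1 each for (dep)BCP+MSC+RvE1inj against (dep)BCP+MSC and against BCP+MSC. DESeq2 called 1 member for BCP+MSC+Treg against BCP and 1 for (dep)BCP+MSC+RvE1inj against BCP+MSC, where the covariate for sex-linked genes gave 1 as well, each time Ucp1. Without BCP+MSC+Treg replicate 1 and (dep)BCP+MSC+RvE1inj replicates 1 and 3, its log2 fold change turned to -0.703 for BCP+MSC+Treg against BCP+MSC, -1.335 against BCP+MSC+RvE1 and -0.892 for (dep)BCP+MSC+RvE1inj against BCP+MSC. With each animal left out it ran from -0.759 to 8.746 and from -1.432 to 9.693 in the first 2, the negative values being those without BCP+MSC+Treg replicate 1. The cause was not tested.

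At equal Adipoq, 2 to 3 members were called between toxin-treated and untreated mice under all alternatives and with each animal left out. Where Cidec fell under the fold threshold (0.857 to 0.998), its adjusted p stayed under 0.05 by edgeR. The fit with the replicate number as a block left out (dep)BCP+MSC replicates 4 and 5, which have no replicate number in the labels. With the block Lep was at -1.484 (edgeR, adjusted p = 0.0637) and 2 members were called, and without those 2 animals and without a block it was at -1.417 (adjusted p = 0.0659), again with 2 members called. For (dep)BCP+MSC against BCP+MSC at equal Adipoq, 1 member was called with Plin1 as the covariate, 0 with only the groups compared, 0 without BCP replicate 4 and (dep)BCP+MSC replicate 1, and 0 to 2 with each animal left out. The block changed no other call of a member, and 0 members were called with it in the 10 comparisons without the covariate. Calls over all genes went from 959 to 2149 with the block for (dep)BCP+MSC against BCP+MSC and from 0 to 329 for the injected against the uninjected toxin-treated group, but without the 2 animals and with no block they were 2685 and 615, and 309 in place of 202 for (dep)BCP+MSC+RvE1inj against BCP+MSC, so the block lowered them on the same animals. Of 22 numbered samples, 7 correlated best with their own number.

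Calls over all genes depended on the tool: DESeq2 gave 1842 for (dep)BCP+MSC against BCP+MSC and 852 for (dep)BCP+MSC+RvE1inj against BCP+MSC, where edgeR gave 959 and 202 and, with only the groups compared, 157 and 40. For BCP+MSC+RvE1 against BCP it gave 98 against 0. In the second comparison the sex-linked covariate gave 459 and removal of the 3 animals high in Ucp1 15, and removal of single animals gave 44 to 204, against 422 to 1354 in the first. Between toxin-treated and untreated mice 2403 became 1537 and, at equal Adipoq, 2490 became 1647 without those 3 animals, and 4185 genes passed without a fold threshold. Depth limits Ucp1, which was at or under 3 counts in several samples, and Lep in the 2 samples with 1 count.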
